A study of Mus musculus with 5 samples.

Results

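Chromosome 7 of CGR8 mouse embryonic stem cells carried 2418 of the 35512 initiation zones in the deposited list, or 6.88% of the 35138 zones on the 19 autosomes. Members were all zones that the list places on chromosome 7, with no further selection. An initiation zone is an interval in which sequencing of short nascent DNA strands placed the start of DNA replication. The study prepared 3 nascent strand samples from separate cultures of CGR8, a pluripotent line grown in serum and leukaemia inhibitory factor without feeder cells. It also prepared 2 controls from the same line, genomic DNA sonicated and treated with lambda exonuclease, and nascent strands treated with RNase A to remove the RNA primer before that digestion. The 3 replicates were combined by the authors into 1 list of positions in build mm9, which has no read count, no score and no value per replicate or control. The depth behind a zone and the spread between cultures are therefore unknown, signal in the 2 controls was not used, and all cells are of 1 line. Errors below are SDs over the other 18 autosomes, which are not biological replicates.

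In mammals, replication starts at many sites along each chromosome, and these sites are grouped into regions that replicate early or late in S phase. Early regions are generally rich in active genes and in origins, and late regions are gene-poor or hold silent gene families. Mouse chromosome 7 is acrocentric, with the centromere at the end of low coordinates. It is known for large arrays of vomeronasal and olfactory receptor genes, which are expressed mainly in sensory neurons, for zinc finger and kallikrein genes, and for imprinted genes. Expression of these genes in CGR8 cells was not measured here. Chromosome 7 was chosen by measured values, the zone positions of this list, since its long empty stretches and its zone number were known from an earlier reading of the list. An exact permutation of 1 chromosome against 18 cannot give a p below 0.0526. Chromosome 7 is therefore described by its value, the mean and SD of the other 18 autosomes and its rank, with no test.

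Zones on chromosome 7 were somewhat more frequent, wider and closer together than on most autosomes, without being at the extreme. The first zone, of 800 bp, lay at chr7:3091001-3091800 and the last, of 6800 bp, at chr7:152492001-152498800. Over this span of 149.4 Mb there were 16.2 zones per Mb, against 14.6 ± 3.17 on the other autosomes (n = 18), rank 7 of 19 from the highest. The autosomes with fewest and most zones per Mb were chromosome 14 with 10.2 and chromosome 11 with 22.4. Zones covered 10.7 Mb, or 7.14% of the span, against 5.77% ± 2.38 (n = 18), rank 6 of 19. Without the stretches of over 3 Mb that had no zone, the density of chromosome 7 was 17.9 zones per Mb, rank 3 of 19. Chromosome 7 had 3 such stretches, and elsewhere only chromosome 2 had any, with 1. The rise in density and rank therefore follows by construction.

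Zone widths ran from 600 bp to 37.4 kb. The median width was 3000 bp, with quartiles at 1800 and 5600 bp. On the other autosomes the median was 2561 ± 459 bp (n = 18), with higher medians on chromosomes 4 (3200 bp) and 11 (3400 bp) and the same median as on chromosome 7 on 3 autosomes. Narrow zones were few: 126 zones, or 5.21%, were under 1 kb, against 8.19% ± 2.03 (n = 18), and 1 autosome, chromosome 11, had a lower share at 4.66%. Wide zones of at least 10 kb numbered 224, or 9.26%, against 6.83% ± 3.33 (n = 18), rank 5 of 19. The widest zone of the chromosome had rank 15 among the widest zones of the 19 autosomes.

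The 5 widest zones had from 16 to 30 other zones nearby, and these counts were not compared with those of all zones. The widest, of 37.4 kb, covered chr7:52954401-52991800 and had 23 other zones with midpoints within 250 kb. Those of 30.6 kb at chr7:52246601-52277200 and of 29.4 kb at chr7:51770201-51799600 lay before it and had 30 such neighbours each. The second widest, of 33.4 kb, lay at chr7:87205001-87238400 with 23 neighbours, and the fourth, of 30000 bp, at chr7:108054801-108084800 with 16. So 3 of the 5 widest zones fell between 51 and 53 Mb, in one of the densest parts of the chromosome.

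The median distance between neighbours was 18200 bp, with quartiles at 5400 and 51800 bp. It was shorter than the 27428 ± 8757 bp of the other autosomes (n = 18), and 3 autosomes had a shorter one. The list held no distance under 800 bp on chromosome 7, and 83 distances were of exactly 800 bp. Any closer zones would not appear apart, which bears on zone number, width and clusters. Of all zones, 1299, or 53.7%, had another zone within 10 kb, against 44.4% ± 8.77 (n = 18), rank 5 of 19. Lone zones were rare: 95 zones, or 3.93%, had none within 100 kb, against 7.03% ± 2.46 (n = 18), and 1 autosome, chromosome 11, had a lower share.

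Zones joined at distances of up to 10 kb formed 57 clusters of 5 or more zones, which held 17.5% of the zones of chromosome 7. The other autosomes held 9.97% ± 5.58 of their zones in such clusters (n = 18), and 2 had a higher share. The largest cluster had 18 zones in 122.6 kb at chr7:20296001-20418600, of which 62.5% was covered by zones. It lay in the 1 Mb that preceded the second longest empty stretch of the autosomes. The next clusters had 13 zones each, at chr7:26051201-26178000 with 78.9% covered and at chr7:29770201-29903800 with 70.2% covered. The fourth had 12 zones at chr7:19780801-19877400, and 2 clusters of 11 zones lay at chr7:4936601-5055000 and chr7:25837601-25915600. All of these lay in the first 30 Mb of the chromosome.

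Stretches without zones were described next. A stretch without a zone is one for which the list has no entry, and the list holds no read coverage for it. It does not tell unmapped sequence or assembly gaps from mapped sequence without a zone, so their part in the stretches and empty windows below was not tested. Chromosome 7 had 33 stretches of over 500 kb between zones, a number close to the 31.3 ± 11.1 of the other autosomes (n = 18). Per 100 Mb of span it had 22.1, against 24.7 ± 5.59 (n = 18), rank 12 of 19. Together the 33 stretches made up 41.4 Mb, or 27.7% of the span, against 20.5% ± 4.82 (n = 18), the highest share of the 19 autosomes. The next highest was 27.3% on chromosome 14. The shortest of the 33 was 515.0 kb long, and the longest stretch below the limit was 495.6 kb. With zones under 1 kb left out of every autosome, the share of chromosome 7 was 30.02% against 27.0% ± 5.92 (n = 18), rank 8 of 19, so rank 1 did not hold without the narrowest zones.

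The stretches of chromosome 7 differed from those elsewhere in the length of a few. The longest was 7.10 Mb long, at chr7:39302201-46404000. The second was 3.50 Mb long, at chr7:20620001-24124400, and the third 3.34 Mb, at chr7:7253601-10595200. These were also the 3 longest of all 597 autosomal stretches over 500 kb. On the other autosomes the longest stretch was 1.99 ± 0.54 Mb (n = 18), from 1.20 Mb on chromosome 18 to 3.12 Mb on chromosome 2. The longest of chromosome 7 lay 9.41 SD above that mean.

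The next 3 stretches were alike in length, with 2.41 Mb at chr7:59323801-61730400, 2.36 Mb at chr7:92035801-94394400 and 2.27 Mb at chr7:31992201-34264200. Of the 23 autosomal stretches over 2 Mb, chromosome 7 held 6, and the other 18 autosomes held 17 together. Below these there was a gap: no stretch of chromosome 7 measured between 1.27 and 2.27 Mb. Ranks 7 to 10 were 1.27 Mb at chr7:15000601-16271600, 1.24 Mb at chr7:112960201-114205000, 1.16 Mb at chr7:61731201-62888200 and 1.01 Mb at chr7:97720401-98733600. The other 23 stretches lay under 1 Mb.

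**Figure D1:**
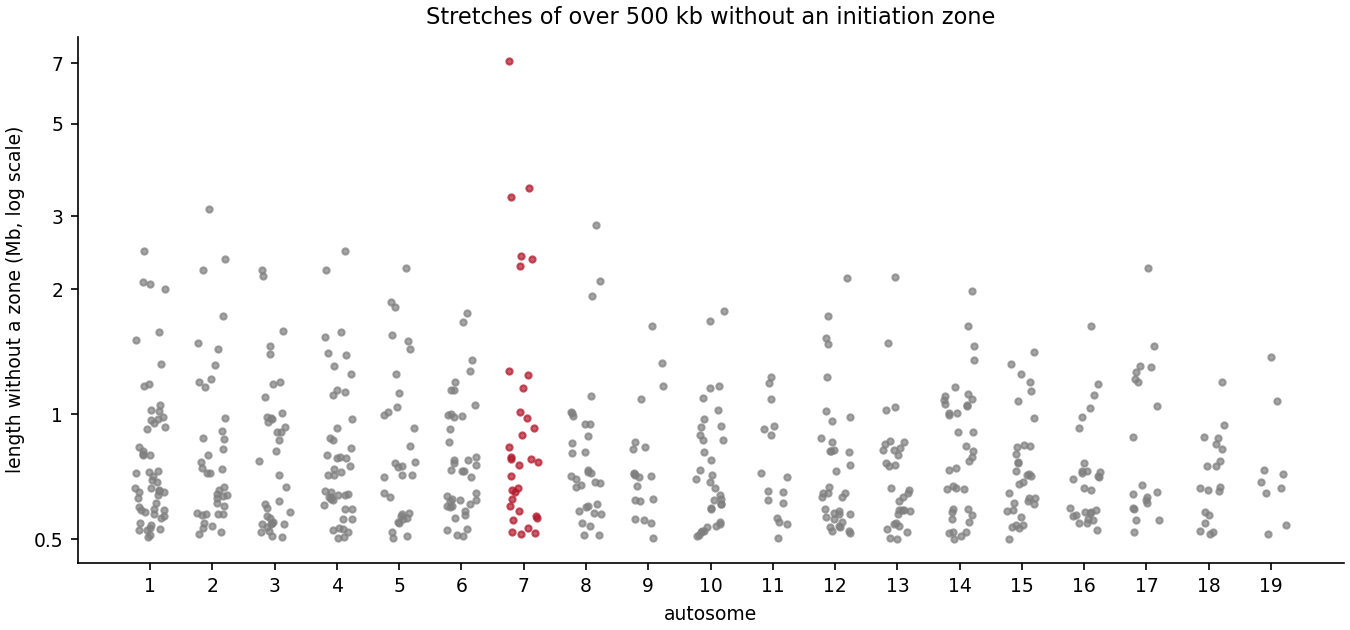
Each point is 1 stretch of over 500 kb without a zone, plotted by autosome (horizontal axis) and length in Mb (vertical axis, log scale), with chromosome 7 in red and sideways scatter only for legibility. The 3 longest points, at 3.34, 3.50 and 7.10 Mb, are all on chromosome 7, while its other points lie among those of the other autosomes.

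The 3 longest stretches alone took up 13.9 Mb, or 9.34% of the span, and made up 33.7% of the length in stretches over 500 kb. The remaining 30 stretches covered 18.4% of the span. Stretches were unevenly placed: 19 of the 33 began before 70 Mb and totalled 29.8 Mb, and the 14 that began after it totalled 11.6 Mb. From 131784201 to the last zone there was none, so 20.7 Mb of the distal end held no stretch over 500 kb. The limit at 70 Mb was chosen after the values were seen.

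Some of the long stretches bordered more zones on 1 side than on the other. The stretch at chr7:20620001-24124400 followed 74 zones in the preceding 1 Mb and was followed by 8 zones in the next 1 Mb. The stretch at chr7:31992201-34264200 lay between 50 zones and 25 zones. The longest stretch lay between 27 zones and 12 zones. Of the 33 stretches, 11 had 20 or more zones in the 1 Mb on at least 1 side. On both sides, 2 had as many, and 5 had at most 5 zones. These counts were not made for the other autosomes.

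Zones next to the stretches were narrow. The 60 zones that bordered a stretch over 500 kb had a median width of 1300 bp, against 3000 bp for all zones of the chromosome, and 55 of them were at or below that chromosome median. Their widths ran from 600 to 5800 bp, so none reached 10 kb. The longest stretch was bordered by zones of 800 bp at both ends. On the other autosomes the bordering zones had a median width of 1144 ± 150 bp (n = 18), from 1000 to 1600 bp, and chromosome 7 had rank 2 of 19. Narrow borders were thus found on every autosome and were not a trait of chromosome 7 alone.

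Cutting the chromosome at the 33 stretches left 34 islands of zones, a measure added after the profile was seen. The largest was the distal one, chr7:131784201-152498800, with 498 zones at 24.0 per Mb. The next was chr7:115568601-131128400, with 283 zones at 18.2 per Mb. The third, chr7:27858401-31992200, was shorter at 4.13 Mb and held 201 zones, or 48.6 per Mb. An island of 1.38 Mb at chr7:16271601-17648800 reached the same 48.6 per Mb, with 67 zones of a median width of 5000 bp. At the other end, 15 islands had fewer than 10 zones and 6 were a single zone, with widths of 800 to 2000 bp. Of these 6 lone zones, 5 lay between 55 and 68 Mb, at 55392401, 61730401, 66483401, 67147801 and 67984401, and the sixth began at 101765401. Within islands chromosome 7 had 22.4 zones per Mb, against 18.3 ± 3.36 on the other autosomes (n = 18), rank 4 of 19.

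The profile along the chromosome was then read in 148 fixed windows of 1 Mb, which held 2374 zones by midpoint. Windows held a median of 13 zones, with quartiles at 3 and 24, and the fullest had 67. A window with 20 or more zones is called dense and one with 5 or fewer sparse, which are the upper and lower quartile limits of the 2237 windows of the other 18 autosomes. On chromosome 7, 52 windows were dense (35.1%), 46 were sparse (31.1%) and 50 lay between (33.8%). Windows of the middle class were fewer than on the other autosomes, where they made up 45.0% ± 7.66 (n = 18), and the share was the lowest of 19. With zones under 1 kb left out the share was 37.8%, and 4 autosomes had a lower one. It was 37.8% in windows shifted by 500 kb, rank 17 of 19 from the highest, and 37.7% in windows of 500 kb, rank 14. With limits at the 80th and 20th percentiles it was 39.9% and again the lowest. The lowest rank thus depended on the placement and size of the windows. Of all 2418 zones, including those beyond the windows, dense windows held 69.8% and sparse windows 3.23%.

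**Figure D2:**
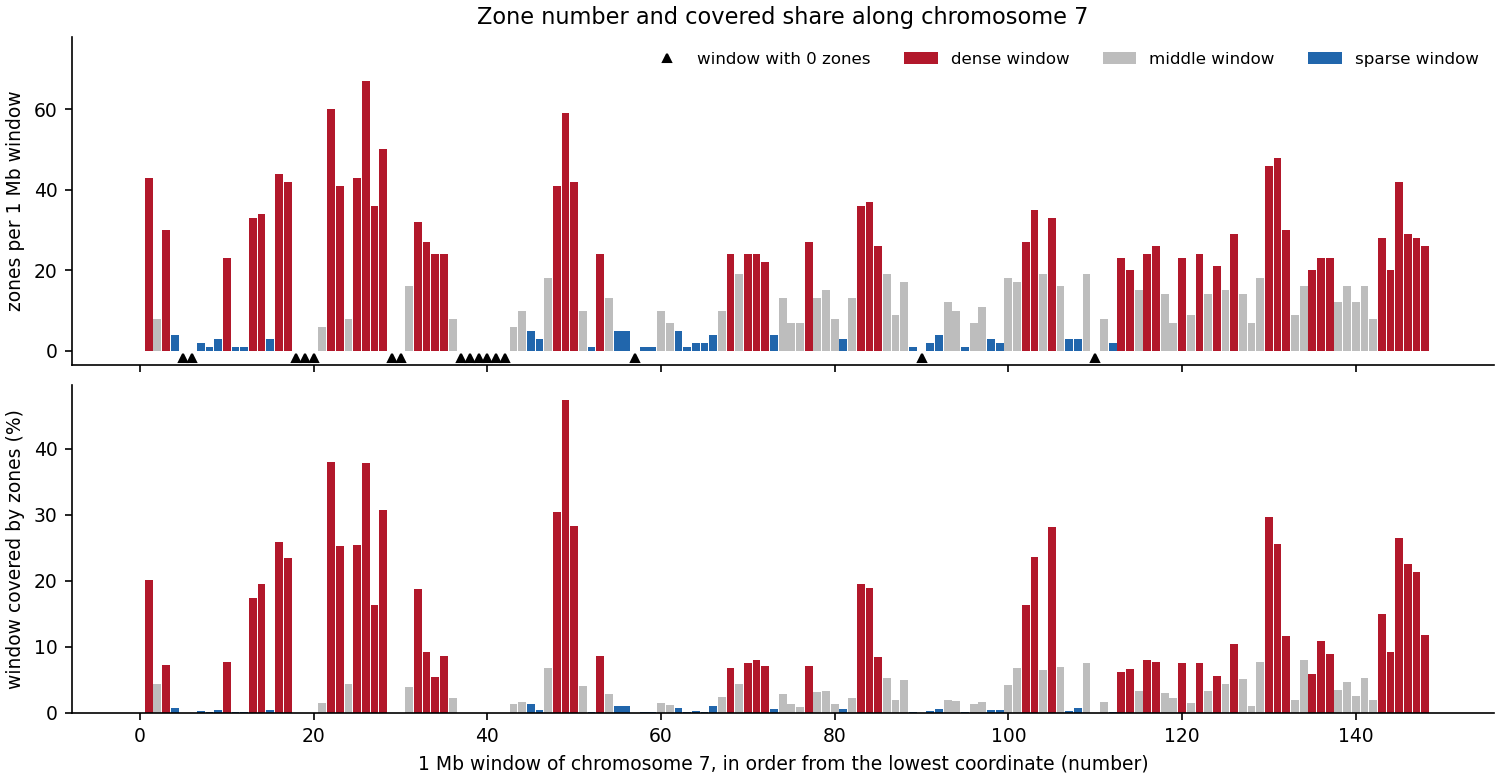
The upper panel shows zones per 1 Mb window and the lower panel the percentage of each window covered by zones, for the 148 windows of chromosome 7 in order from the lowest coordinate. Red bars are dense windows (20 or more zones), blue bars sparse ones (5 or fewer), grey bars the rest, and triangles the 16 windows with 0 zones. Tall red blocks and empty runs alternate on the left, and the 36 windows at the right end hold 7 to 48 zones each.

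Empty windows were frequent. Chromosome 7 had 16 windows without a zone, or 10.8%, against 1.89% ± 1.23 on the other autosomes (n = 18). The highest share elsewhere was 4.52%, on chromosome 2. With 6.21% of the autosomal windows, chromosome 7 thus held 16 of the 64 empty ones. They formed 7 runs: 6 windows at chr7:40000001-46000000, 3 at chr7:21000001-24000000, 2 each at chr7:8000001-10000000 and chr7:32000001-34000000, and single windows at chr7:60000001-61000000, chr7:93000001-94000000 and chr7:113000001-114000000. With windows wholly inside stretches of over 3 Mb left out, the share was 3.65% against 1.83% ± 1.11 (n = 18) and was still the highest. Its distance above the mean of the other autosomes was then 1.64 SD, against 7.26 SD with all windows.

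Some of the densest windows lay beside these empty runs and others far from them. The fullest, chr7:29000001-30000000, held 67 zones and was 37.8% covered. The second, chr7:25000001-26000000, held 60 zones and began 1 Mb after an empty run. The third, chr7:52000001-53000000, held 59 zones with a median width of 5600 bp, and at 47.3% it was the most fully covered of the 12 windows named here. The fourth, chr7:31000001-32000000 with 50 zones, was followed directly by an empty run. Those at chr7:134000001-135000000 and chr7:133000001-134000000 followed with 48 and 46 zones, in the distal part. Next came chr7:19000001-20000000 with 44, and chr7:4000001-5000000 and chr7:28000001-29000000 with 43 each. Rank 10 was shared by windows with 42 zones at chr7:20000001-21000000, chr7:53000001-54000000 and chr7:148000001-149000000. Of these 12 windows, 9 lay below 54 Mb.

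Unevenness over all windows was high but not the highest. The ratio of the variance of the counts to their mean was 13.3, against 9.83 ± 2.75 (n = 18), rank 3 of 19. The Gini index, which is 0 when all windows hold equal numbers of zones and approaches 1 when few windows hold all, was 0.495, against 0.440 ± 0.042 (n = 18), rank 2 of 19 after chromosome 4 at 0.514. The densest 10% of windows held 29.7% of the zones and the sparser 50% held 13.9%, against 18.2% ± 3.05 on the other autosomes (n = 18). Without windows inside stretches over 3 Mb the Gini index was 0.454, rank 10 of 19, against 0.440 ± 0.042 elsewhere. Measured as covered length per window it was 0.636, rank 8 of 19, against 0.618 ± 0.047.

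**Figure D3:**
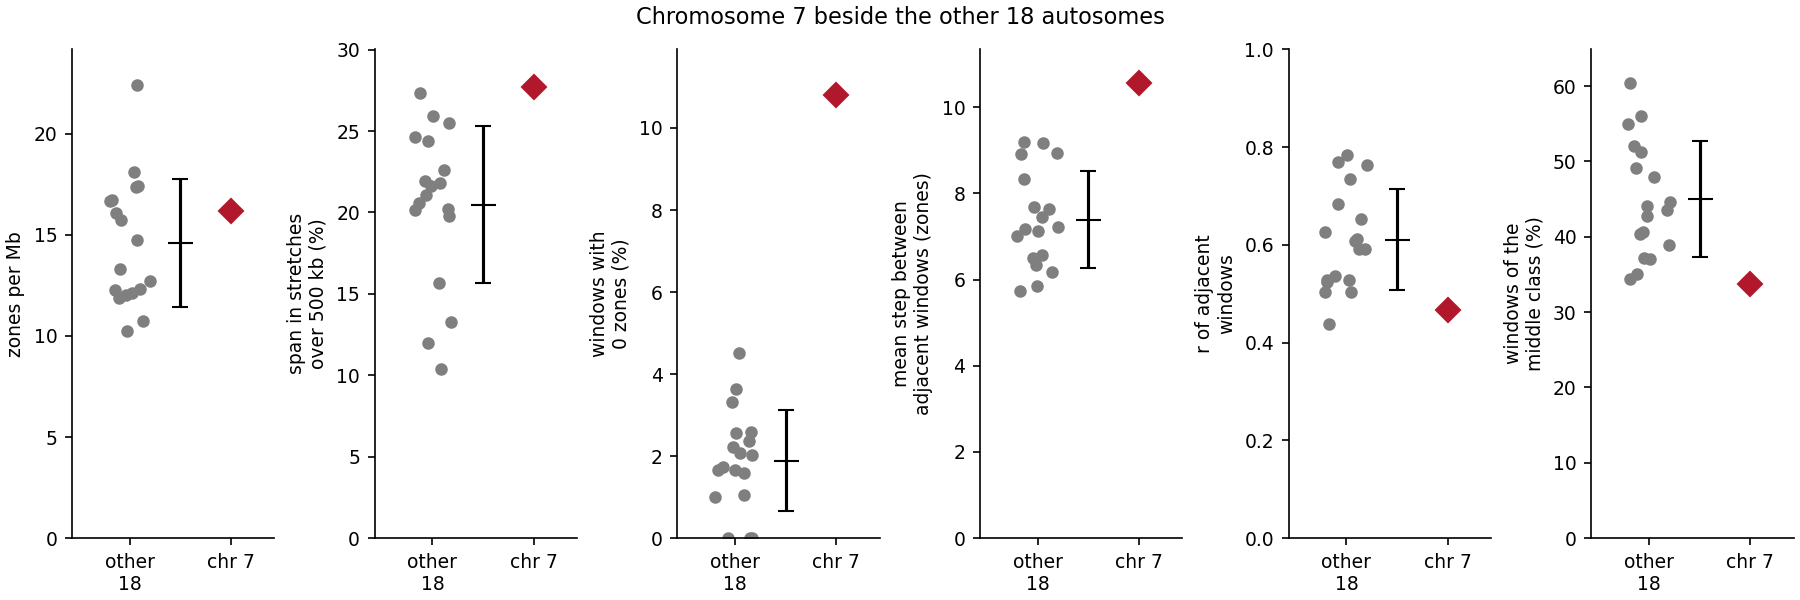
Chromosome 7 (red diamond) is shown beside the other 18 autosomes (grey circles, with their mean and SD in black) for zones per Mb, share of the span in stretches over 500 kb, share of empty 1 Mb windows, mean step between adjacent windows, correlation of adjacent windows and share of middle windows. Zone density (16.2 per Mb) lies inside the range of the others, while empty windows (10.8%) and steps (10.6 zones) lie above it.

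Dense and sparse windows alternated in short blocks. Window counts crossed the median of the other autosomes' windows, 11 zones, 31.3 times per 100 steps. Elsewhere this was 27.4 ± 3.78 (n = 18), with the highest value, 35.3, on chromosome 18. Chromosome 7 had rank 4 of 19, so the frequency of alternation was not at the extreme. Dense windows formed 25 runs, of which 11 were single windows, and sparse windows formed 18 runs, of which 7 were single. The longest dense and the longest sparse run each had 6 windows, within the spread of the other autosomes (8.22 ± 4.78 and 6.83 ± 3.55 windows, n = 18). Chromosome 7 had 8 dense runs of 3 or more windows, against 3.33 ± 1.88 (n = 18), a number matched by chromosome 11 alone. This is a plain count, and chromosome 7 had 148 windows against 124 ± 33.5 elsewhere. As a share, runs of 3 or more dense or sparse windows held 39.2% of its windows, against 34.5% ± 10.6 (n = 18), rank 8 of 19.

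The 8 longer dense blocks are listed here as a strong and a weak group by zones per window. Among the strong, chr7:28000001-32000000 held 196 zones (49.0 per window, 27.6% covered), chr7:51000001-54000000 held 142 (47.3 per window, 35.4% covered) and chr7:133000001-136000000 held 124 (41.3 per window, 22.3% covered). The block chr7:86000001-89000000 held 33.0 zones per window, and the distal block of 6 windows, chr7:146000001-152000000, held 28.8 with a median width of 5200 bp. The weak blocks were chr7:35000001-39000000 with 26.8 zones per window, chr7:73000001-76000000 with 23.3 and chr7:138000001-141000000 with 22.0, and their covered shares ran from 7.57% to 10.5%. The division into 2 groups was made after the values were seen. Its limit, between 28.8 and 26.8 zones per window, is a smaller step than that from 41.3 to 33.0 among the strong blocks. The groups are thus not separate kinds.

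The 6 longer sparse blocks held few or no zones. Those at chr7:40000001-46000000 and chr7:21000001-24000000 were empty. The block chr7:7000001-13000000 held 10 zones in 6 windows and followed a window of 30 zones. Blocks at chr7:58000001-63000000 and chr7:65000001-70000000 held 12 and 14 zones in 5 windows each, and only the windows from 63 to 65 Mb, with 10 and 7 zones, parted them. The block chr7:92000001-96000000 held 7 zones in 4 windows. No sparse window lay beyond 116 Mb, where 36 windows held between 7 and 48 zones.

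Changes from 1 window to the next were larger than on any other autosome. Adjacent windows differed by 10.6 zones on average, against 7.39 ± 1.13 on the other autosomes (n = 18), whose highest value was 9.19 on chromosome 8. Since windows with more zones can differ by more, the steps were also taken on the square root of the counts, where the mean was 1.48 against 1.06 ± 0.10 (n = 18), and relative to the mean count, where it was 0.659 against 0.515 ± 0.061 (n = 18). Chromosome 7 ranked first on these scales also. In windows of 500 kb it had rank 2 of 19, with 4.50 against 3.74 ± 0.44 zones (n = 18). Of 147 steps, 25 were of 20 zones or more, or 17.0%, against 6.88% ± 3.33 (n = 18). This count was added after the profile was seen.

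A dense window lay directly beside a sparse one at 11 steps, or 7.48%, against 2.49% ± 1.33 on the other autosomes (n = 18). The highest share elsewhere was 4.49%, on chromosome 17. This count was likewise added after the profile was seen. The largest step rose from 6 zones in chr7:24000001-25000000 to 60 in the next window. The second dropped from 50 zones in chr7:31000001-32000000 to 0, and the third from 42 zones in chr7:20000001-21000000 to 0. The fourth rose from 3 zones in chr7:18000001-19000000 to 44. Rank 5 was shared by a drop from 43 to 8 zones after chr7:4000001-5000000 and a rise from 8 to 43 zones after chr7:27000001-28000000. All of these lay below 33 Mb.

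The counts of adjacent windows were less correlated than on most autosomes. The counts of neighbouring windows correlated at r = 0.47 over 147 pairs on chromosome 7, against 0.61 ± 0.10 (n = 18), and only chromosome 18 had a lower value, 0.44. At 2 Mb the correlation was 0.17 against 0.41 ± 0.15, at 3 Mb 0.09 against 0.32 ± 0.16 and at 5 Mb -0.02 against 0.18 ± 0.19. Windows share neighbours and are not independent, so these correlations are descriptions. In windows of 500 kb the correlation of neighbours was 0.61 against 0.66 ± 0.08 with rank 13 of 19, so the lower likeness was mainly seen at 1 Mb and beyond.

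The steps and empty windows were concentrated in the part of low coordinates. The windows were divided into 3 successive parts of 50, 49 and 49 windows, chr7:4000001-54000000, chr7:54000001-103000000 and chr7:103000001-152000000, and the other autosomes were divided in the same way. This division was chosen after the profile was seen. The low part held 898 zones, 13 of the 16 empty windows and 16 of the steps of 20 zones or more. It had 20 dense and 22 sparse windows and 8 windows of the middle class.

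In the low part the mean step was 14.3 zones, against 6.80 ± 1.65 in the low parts of the other autosomes (n = 18), whose highest value was 10.4 on chromosome 17. Its variance over mean was 22.0, against 7.86 ± 3.73, and the highest elsewhere was 15.4 on chromosome 2. The density of 17.96 zones per window was also above the 11.9 ± 3.86 of the other low parts, rank 3 of 19. Zones there had a median width of 3800 bp, against 2267 ± 574 bp, the highest of 19. Stretches over 500 kb took up 42.5% of its length, against 24.6% ± 8.02, again the highest of 19. The low part thus had both the highest median width and the highest share of empty length among the low parts of the 19 autosomes.

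The middle part was the poorest, with 521 zones at 10.6 per window, against 13.4 ± 4.47 (n = 18). Its mean step of 6.67 zones lay within the spread of the others (7.17 ± 2.02), and 20 of its 49 windows were sparse. Median zone width there was 2000 bp, against 2322 ± 509 bp. The correlation of adjacent windows followed another order than the steps: it was 0.44 in the low part, against 0.47 ± 0.19 in the low parts of the other autosomes (n = 18, rank 13 of 19), and 0.36 in the high part, against 0.57 ± 0.10 (n = 18), the lowest of 19. The high part held 955 zones at 19.5 per window, against 18.5 ± 8.004, and only 4 sparse windows. Its Gini index of 0.299 was among the lower ones (0.378 ± 0.069, rank 16 of 19), and stretches over 500 kb took up 7.89% of it. With the low part of every autosome left out, the mean step of chromosome 7 was 8.43 zones against 7.64 ± 1.38, rank 5 of 19. The first rank of the steps of the whole chromosome therefore rested on the 50 windows of low coordinates.

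**Figure D4:**
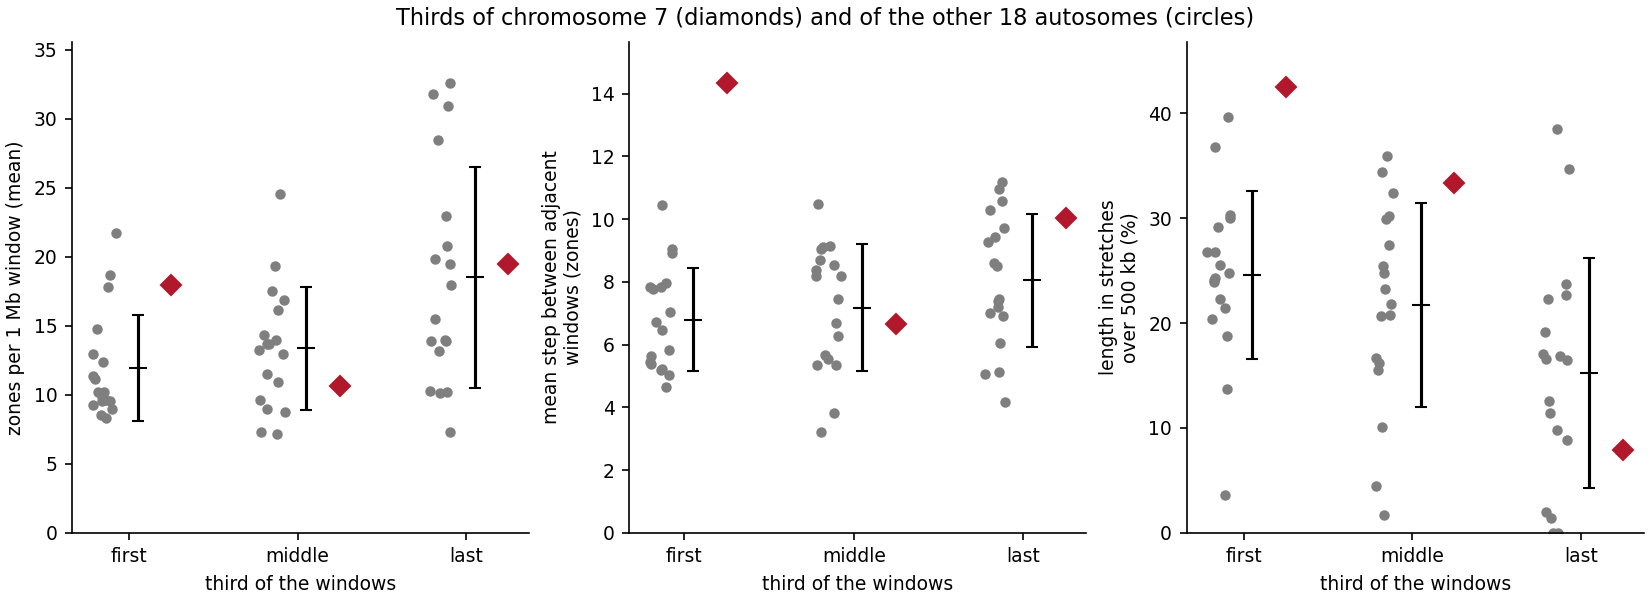
Mean zones per 1 Mb window, mean step between adjacent windows and percentage of length in stretches over 500 kb are shown for the 3 successive parts of chromosome 7 (red diamonds) and of the other 18 autosomes (grey circles, with mean and SD in black). In the first part chromosome 7 lies above all others in step (14.3 zones) and in empty length (42.5%), and in the other parts it lies among them.

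In segments of 10 Mb the alternation had a coarser form. The segment from 20 to 30 Mb was the richest full segment, with 267 zones at 26.7 per Mb and 15.6% covered, although stretches over 500 kb took up 40.6% of it. The segment from 30 to 40 Mb held 217 zones, the one from 40 to 50 Mb only 24, and from 50 to 60 Mb there were 218. From 60 to 70 Mb there were 33 zones, with a median spacing of 116000 bp. From 70 to 90 Mb density returned to 15.4 and 19.7 zones per Mb with narrower zones (median widths of 2000 and 2800 bp). The segment from 90 to 100 Mb was the third poor one, with 63 zones. From 120 to 150 Mb the 3 segments held 182, 231 and 206 zones, and neither the first nor the last of these had any length in a stretch over 500 kb.

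Zone width followed the number of zones in the window. In dense windows the median width was 3600 bp (quartiles 2200 and 6600 bp), in middle windows 2000 bp (1400 and 3400 bp) and in sparse windows 1400 bp (1000 and 2000 bp). The share of wide zones, of at least 10 kb, was 12.2% in dense windows, 2.46% in middle windows and 0% of the 78 zones in sparse windows. Zones covered 16.6% of dense, 3.40% of middle and 0.28% of sparse windows. Over the 132 windows with a zone, the number of zones and their median width had a Spearman's rho of 0.84, which is a description, since many windows give a median over few zones.

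The same order was found on the other autosomes, so it was not particular to chromosome 7. There, median widths were 3356 ± 478 bp in dense and 1189 ± 58.3 bp in sparse windows (n = 18). Widths in dense windows were 2.57 times those in sparse windows on chromosome 7, against 2.83 ± 0.44 times elsewhere. Sparse windows of chromosome 7 were the least covered of 19, with 0.28% against 0.41% ± 0.05 (n = 18). This share counts empty windows, which were 16 of its 46 sparse windows, against means of 2.67 and 36.3 elsewhere. It is therefore not a finding separate from the number of empty windows. The few zones in its sparse windows had the highest median width of 19, 1400 bp. Of these zones, 14.1% had a neighbour within 10 kb, against 6.46% ± 3.92. These values rest on 78 zones. Nearest neighbours lay at a median of 5600 bp in dense, 21000 bp in middle and 126000 bp in sparse windows.

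**Figure D5:**
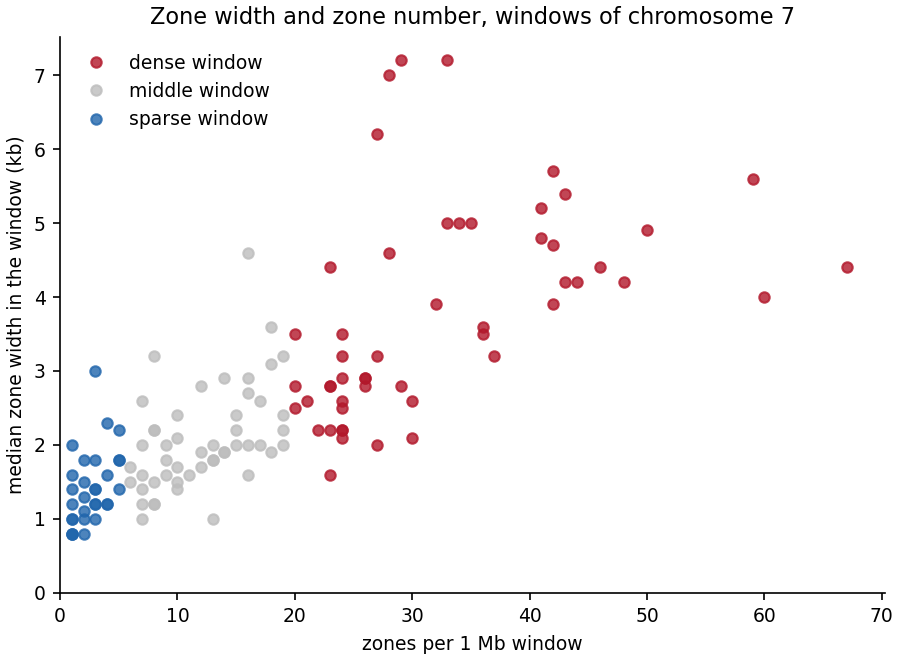
Each point is 1 of the 132 windows of chromosome 7 that held a zone, with the number of zones on the horizontal axis and their median width in kb on the vertical axis, coloured by class. Medians lie between 0.8 and 3.0 kb in sparse windows, and all medians above 5 kb belong to dense windows.

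The gene content of the chromosome could be counted, but not placed against the zones, because the gene table used is of another build. In the RefSeq table of GRCm38.p6, chromosome 7 had 2030 of 21887 protein-coding genes, or 9.27%, the most of any autosome. Olfactory receptors, the odour sensors of the nose, numbered 239 of 1110 by symbol, second to chromosome 2 with 287. Vomeronasal type 1 receptors, which sense pheromones, numbered 126 of 231, and type 2 receptors 52 of 124, the most of any autosome in both families. Zinc finger genes named Zfp, many of which encode repressors of transposable elements, numbered 93 of 397. Of 27 kallikrein genes, which encode secreted serine proteases, 26 stood side by side on chromosome 7 beside Ctu1.

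Olfactory and vomeronasal receptors together made up 20.5% of the protein-coding genes of chromosome 7, the highest share of the 19 autosomes, ahead of chromosome 2 with 16.1%. In gene order the olfactory receptors formed 13 arrays of 5 or more direct neighbours, the longest of 42 genes between Ovch2 and Nlrp10. The vomeronasal type 1 receptors, taken by the symbol prefix Vmn1r, formed 8 such arrays and the type 2 receptors, by Vmn2r, 3. Genes with other symbols, such as V1rd19 at a border of the longest type 1 array, were not counted. Per Mb of zone span chromosome 7 had 13.6 protein-coding genes, rank 1 of 19, and 10.8 without the receptor families, rank 3 after chromosomes 11 and 19. The zone density of chromosome 7 had rank 7. Whether the arrays lie in the empty stretches was not tested.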

How the data were processed

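Nascent strands of CGR8 cells were sequenced in 3 samples beside 2 controls. The deposited list holds start and end positions that the authors made by combining the 3 samples, per the series' design text. Build mm9, CASAVA 1.8 and SICER are named, per the submitters' processing notes, while their settings and the use of the controls are not given in the sources used here. Starts and widths on chromosome 7 are all multiples of 200 bp, with the end counted as part of the zone. Positions are printed counting from 1.

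The span ran from the first to the last zone. A zone entered the window of its midpoint, and windows reaching beyond the span were dropped. Distances run from the end of a zone to the start of the next. Regions to be named were the widest zones, longest stretches, fullest windows, runs of 3 or more windows, largest clusters, largest steps and end zones, by fixed rules. The chromosome, lists and rules were chosen with earlier results of these data known. Of the measures, 14 were recomputed under the alternatives of the closing section. Genes were counted by symbol, and only chromosome and gene order were used. The scripts were checked on 20 simulated lists with known blocks. All 20 gave back the values built in for window counts, dense and empty windows, dense runs, median width, span, longest stretch and mean step. The other measures were not checked in this way. Python 3.11.15 with numpy 2.4.6, pandas 2.3.3, scipy 1.17.1 and matplotlib 3.10.9 was used.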

Additional observations from a re-analysis of the deposited data

How the results depend on the processing

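Each result is given as the distance of chromosome 7 from the mean of the other autosomes, in their SDs. Of 60 alternatives for 14 results, 47 kept the side of the mean and moved this distance by less than 1 SD, 12 moved it by more and 1 turned its sign. The share of the span in long stretches stood 1.50 SD above the mean, 0.48 with stretches over 250 kb and 2.97 with stretches over 1 Mb. The variance over mean stood at 1.27 and, for covered length per window, at 0.27. The share of empty windows stood at 7.26. It was 4.33 with zones under 1 kb left out, 1.64 without stretches over 3 Mb, 3.43 and 17.7 in windows of 500 kb and 2 Mb, and 5.15 in shifted windows. The mean step stood at 2.82. It was 1.73 in windows of 500 kb, 3.997 on the square root scale, 0.58 without the low part of every autosome, and 1.53 with both of these last changes. The width ratio of dense over sparse windows stood at -0.59 and turned to 0.17 when classes were set by the zones within 500 kb. The cause of these changes was not tested, except that leaving out stretches removes empty windows by construction. The 5 alternatives for steps on other scales, without parts or without long stretches were added once the profile had been seen, that is, chosen after seeing the data, and no others were. No paired analysis was possible because 1 deposited list combines the replicates, which also prevented omitting each of them in turn. Clusters, islands, bordering zones, runs and the values of the 3 parts were not recomputed. The list holds no depth, so the number of weak zones it misses is unknown.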
